A study of Mus musculus with 12 samples.

Results

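Zfyve9, Tgif2 and 8 core genes of TGF-beta signalling were followed in the pituitary of female mice that had or had not lacked dietary vitamin D. The 10 genes are the ligands Tgfb1, Tgfb2 and Tgfb3, the receptors Tgfbr1 and Tgfbr2, the signal carriers Smad2 and Smad3, the inhibitory Smad7, and Zfyve9 and Tgif2. Zfyve9 and Tgif2 were chosen by their measured values, a lower signal in the peripubertal group, so their group values are given as a description with no test, while the other 8 were taken as the core of the pathway. Every probe whose gene name in the scanner files matched a member was used, which gave 18 of 39429 probes. The filter on dim probes asked for a signal well above background in 4 or more of the 12 array channels, and 12 of the 18 passed. All 10 members kept a probe, among 19090 genes in all, and each had a value in every channel.

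The animals were 2 months old, female and of the inbred C57BL/6J strain, with 4 in each of 3 groups. The control group ate a normal diet throughout, the early life group ate a diet deficient in vitamin D only in early life, and the peripubertal group ate it only around puberty. RNA of whole pituitaries was hybridised to 6 Agilent 2-colour arrays, each carrying 2 animals of 1 group, the odd-numbered in the dye Cy3 and the even-numbered in Cy5. The labels call the animals biological replicates. Levels are normalised log2 intensities of single channels, and they compare 1 probe between samples, never 1 probe with another.

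Limits of the arrays bear on every value below. Both control arrays lay on 1 slide and all 4 arrays of the deficient groups on another, so that for every difference from control the slide and the diet cannot be told apart. Group names follow the scanner files. In the authors' deposited table the 8 columns named for the deficient groups equal channels filed under the other deficient group, and under that assignment the early life and peripubertal values given here change places. Spots were well above background in 61.0% to 66.3% of cases in control channels, 50.6% to 59.7% in early life and 57.9% to 67.2% in peripubertal channels, and outlier marks covered 1.68% to 1.90%, 6.54% to 7.34% and 3.85% to 5.08% in the same order. Of 7 hormone genes of the anterior lobe, Prl and Pomc ranked between 1 and 164 in brightness in all channels. Gh and Cga ranked between 1 and 95 in the 10 channels with a value. The others ranked lower, Lhb from 914 to 5283, Tshb from 636 to 1922 and Fshb, with a value in 8 channels, from 589 to 2045. The 6 ovary markers examined were well above background in at most 2 channels. In RNA of a whole gland, fewer cells of a type and less RNA per cell cannot be told apart.

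TGF-beta ligands are secreted in a latent form and, once released, bind the type II receptor TGFBR2, which activates the type I receptor TGFBR1. TGFBR1 then phosphorylates SMAD2 and SMAD3, which enter the nucleus with SMAD4 and act on target genes. Zfyve9 encodes SARA, an endosomal FYVE-domain protein that presents SMAD2 and SMAD3 to the receptor. Tgif2 encodes a homeobox repressor that binds these SMADs in the nucleus, and SMAD7 blocks the receptor as a feedback inhibitor. In the pituitary, TGF-beta is known for restraining lactotroph growth and prolactin secretion.

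The sequences below are those of the probes that carry the signal of Zfyve9 and Tgif2, the genes whose lower signal opened the question, and of the ligands Tgfb1 and Tgfb2, whose probes share much of their sequence. All are 60 bases long and are written 5′ to 3′ as the scanner files give them, with positions on mouse build mm9. The Zfyve9 probe lies at chr4:108311864-108311923 on the minus strand and the Tgif2 probe at chr2:156679317-156679376 on the plus strand. The Tgfb1 probe lies at chr7:26489877-26489936 on the plus strand and the Tgfb2 probe at chr1:188449333-188449392 on the minus strand. No annotation of build mm9 was used, so exons and untranslated regions are not assigned. Capitals in the Zfyve9 probe mark a stop codon that closes a reading frame open over the whole probe. In the ligand probes, capitals mark the bases shared in their best ungapped overlap.
Zfyve9: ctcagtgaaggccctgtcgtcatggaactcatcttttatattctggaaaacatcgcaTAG
Tgif2: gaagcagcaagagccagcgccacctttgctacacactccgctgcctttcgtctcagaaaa
Tgfb1: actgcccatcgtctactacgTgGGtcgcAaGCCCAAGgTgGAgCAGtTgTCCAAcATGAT
Tgfb2: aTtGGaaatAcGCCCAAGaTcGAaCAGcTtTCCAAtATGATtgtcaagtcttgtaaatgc

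The Tgfb1 and Tgfb2 probes shared 28 of the 41 bases of that overlap, or 68.3%. Zfyve9 was read by 1 probe only. Tgif2 had 3 probes, of which only the printed one was well above background in any channel. The levels of the other two stayed between 6.50 and 6.99 in all 12 channels, so the Tgif2 result also rests on 1 probe.

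Zfyve9 and Tgif2, the receptor anchor and the nuclear repressor, were lower in both deficient groups than in control, not in the peripubertal group alone. Zfyve9 levels in control replicates 1 to 4 were 8.98, 8.71, 8.70 and 8.59. They were 7.74, 8.01, 7.49 and 7.73 in early life and 7.23, 7.29, 7.50 and 7.69 in peripubertal animals. Every deficient channel therefore lay below every control channel, while the deficient groups overlapped each other. The group means were 8.75 ± 0.17 (SD, n = 4) in control, 7.74 ± 0.21 in early life and 7.43 ± 0.21 in peripubertal animals.

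The fitted log2 difference of Zfyve9 was -1.32 ± 0.17 (SE) for peripubertal minus control, a 2.49-fold lower signal, and -1.002 ± 0.17 for early life minus control, 2.00-fold lower. Both comparisons share the control animals. The direct difference, early life minus peripubertal, was 0.31 ± 0.17, within overlapping groups. Taken by dye, peripubertal minus control was -1.47 in Cy3 and -1.16 in Cy5, and early life minus control was -1.23 and -0.78, so each dye alone gave the lower deficient signal.

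Tgif2 had the same order of groups. Its control levels were 8.69, 8.68, 8.37 and 8.25. Early life levels were 7.48, 7.63, 7.87 and 7.75, and peripubertal levels were 7.79, 7.74, 7.41 and 7.28. Again no deficient channel reached the control range, and the deficient groups overlapped. Tgif2 averaged 8.49 ± 0.22 (SD, n = 4), 7.68 ± 0.17 and 7.56 ± 0.25 in control, early life and peripubertal animals.

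The difference of Tgif2 was -0.94 ± 0.17 (SE) for peripubertal minus control, 1.92-fold lower, and -0.81 ± 0.17 for early life minus control, 1.76-fold lower. Early life minus peripubertal was 0.12 ± 0.17. The Cy3 and Cy5 values for peripubertal minus control were -0.93 and -0.95, closer to each other than for Zfyve9. Among 14384 genes with a value in every channel, 1.19% lay lower in all 8 deficient channels than in all 4 control channels, as Zfyve9 and Tgif2 did. Both genes were chosen for a lower peripubertal signal, which is part of that contrast, so nothing is read from the share.

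**Figure D1:**
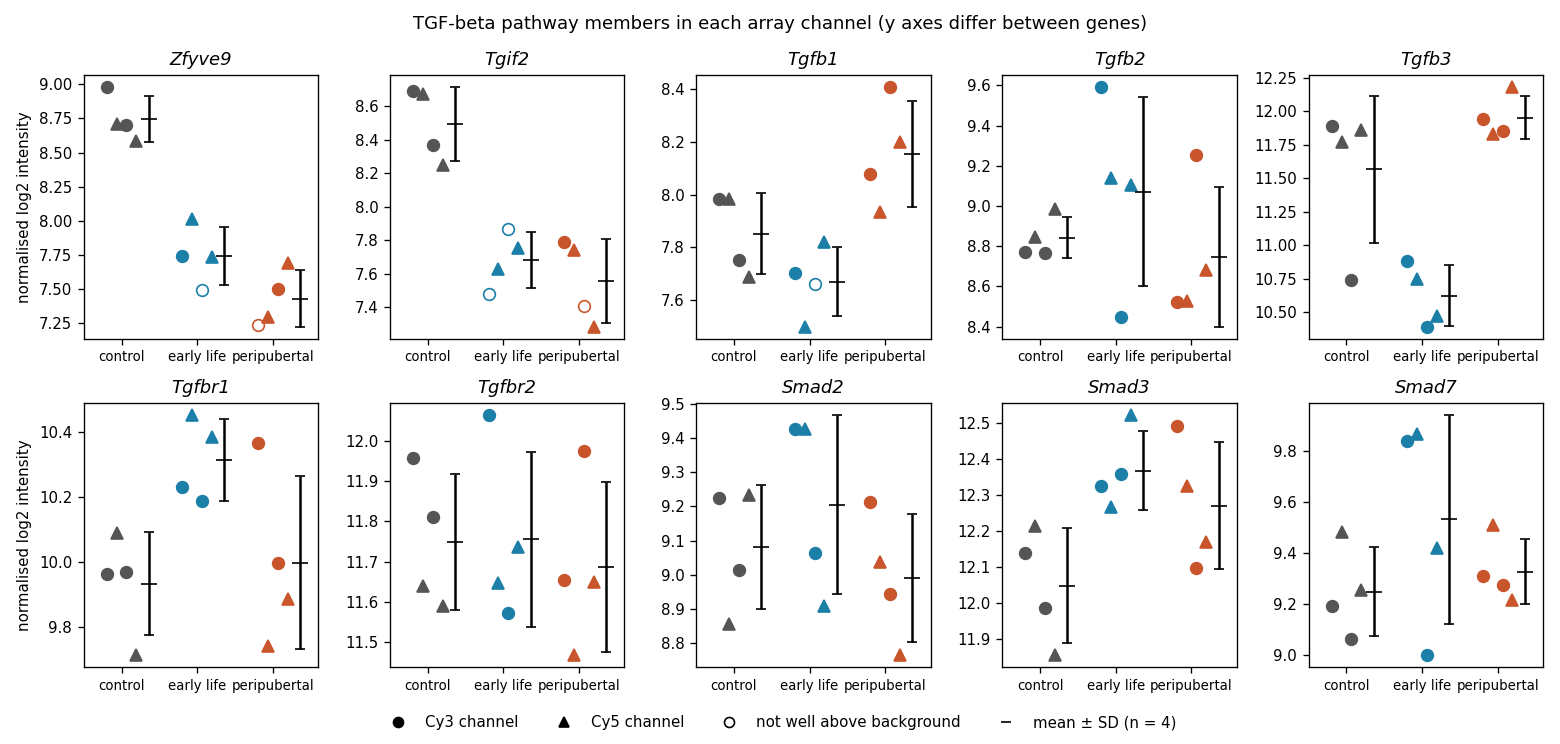
Normalised log2 intensity (y axis, a separate scale for each gene) of the 10 members in each of the 12 channels by diet group; circles are Cy3, triangles Cy5, open symbols channels not well above background, and bars mean ± SD of 4 animals. Zfyve9 and Tgif2 lie lower in every deficient channel than in control, whereas Tgfb3 is low in the early life group and in 1 control animal.

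Both genes came close to the detection limit in the deficient groups. The Zfyve9 probe was well above background in 4 of 4 control channels, in 3 of 4 early life channels and in 3 of 4 peripubertal channels. For the Tgif2 probe these counts were 4, 2 and 3. The normexp correction adds an offset of 50 before the logarithm, which draws dim values together. With an offset of 16, peripubertal minus control was -1.54 for Zfyve9. From the software's own processed signals it was -2.05 for Zfyve9 and -1.43 for Tgif2, against a median of all genes of 0.17. Against control, either gene stayed below 0 in all 31 settings computed. Both were chosen for a lower peripubertal signal, and the early life difference shares the same control animals. Several settings also leave the fitted difference unchanged, so nothing is read from that count. The size differed between settings. With outlier spots left out before the scaling, early life minus control was -0.76 for Zfyve9 and -0.59 for Tgif2.

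The lower signal of Zfyve9 and Tgif2 in the peripubertal group was not seen in the other core genes. None of the 8 other members passed the threshold for peripubertal minus control, an adjusted p of 0.05 by the limma model over all genes, where 4 of 18717 genes did (0.0214%). Of the 8 differences 5 were positive and 3 negative, from -0.10 for Tgfb2 to 0.39 for Tgfb3 (0.11 without control replicate 3), with a median of 0.07 beside 0.0070 over all genes tested. All 8 were positive with median centring, with the software's processed signals and with outlier spots left out before the scaling, which put the median of all genes at 0.14, 0.17 and 0.13, and the median of the 8 was -0.02 without the array of control replicates 3 and 4. All 8 adjusted p-values were 1.00, and none of the 8 had an unadjusted p under 0.05, against 4.67% of all genes. For each of the 8, peripubertal and control animals overlapped, where 4.95% of genes with all values had the peripubertal animals wholly below control and 2.52% wholly above. The 95% intervals reached no lower than -0.71, the bound for Tgfb2, and the bounds of the other 7 were between -0.47 and -0.01.

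**Figure D2:**
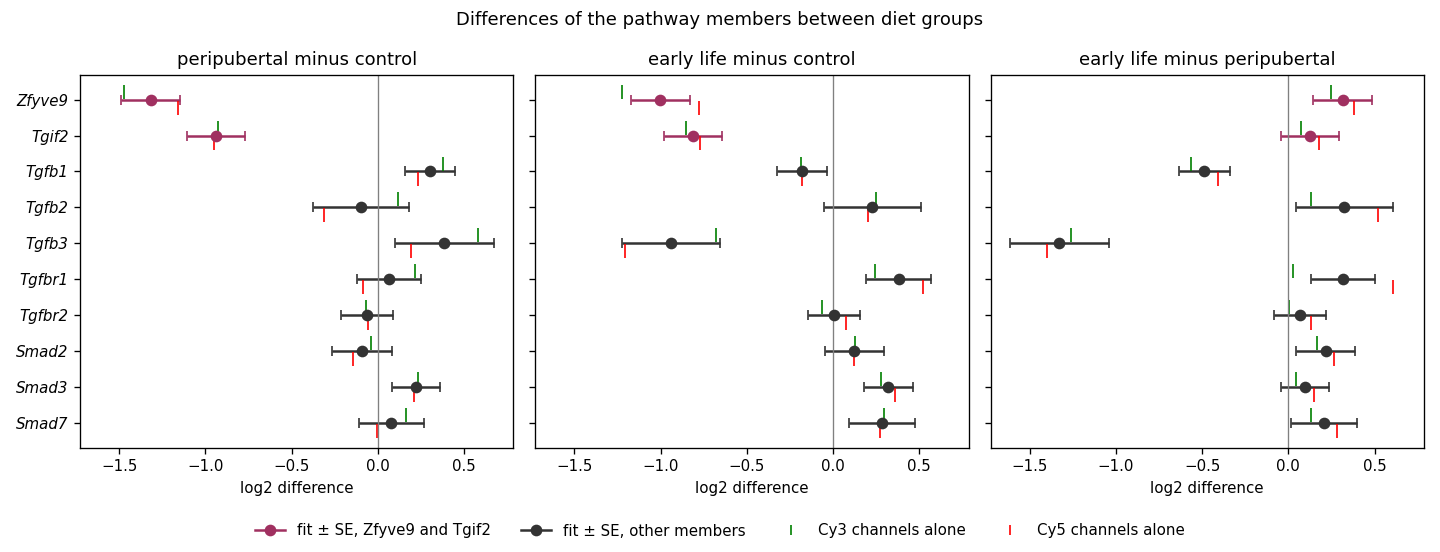
Log2 difference (x axis) of each member in the 3 comparisons; points with bars are the fitted difference ± SE, and green and red ticks are the differences in the Cy3 and Cy5 channels alone. In peripubertal minus control only Zfyve9 at -1.32 and Tgif2 at -0.94 lie beyond -0.10, while Tgfb3 stands lowest in early life minus peripubertal at -1.33.

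Among the ligands, Tgfb3 varied most between the groups. Tgfb3 encodes the third TGF-beta isoform. Its control levels were 11.89, 11.77, 10.74 and 11.86, its early life levels 10.88, 10.74, 10.39 and 10.47, and its peripubertal levels 11.94, 11.83, 11.85 and 12.18. All early life channels lay below all peripubertal channels, and control replicate 3 lay with the early life animals. The difference for early life minus peripubertal was -1.33 ± 0.29 (SE; 95% interval -1.95 to -0.70), 2.51-fold lower, with an adjusted p of 0.0855 by the limma model, which missed the threshold. In that comparison 24 of 18221 genes passed (0.132%), and 7.54% of genes with all values had early life animals wholly below peripubertal ones. The Cy3 and Cy5 values were -1.26 and -1.40.

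Against control, Tgfb3 differed by -0.94 ± 0.29 in early life (95% interval -1.57 to -0.32, adjusted p = 0.185 by the limma model) and by 0.39 ± 0.29 in peripubertal animals (-0.24 to 1.01). These values rested on control replicate 3. Without it peripubertal minus control was 0.11, and early life minus control was -1.22 with an adjusted p of 0.0175 by the limma model. Those fits called 225 and 224 genes in the early life comparisons instead of 18 and 24. Early life minus peripubertal does not use the control levels, so its -1.33 could not change. The estimate of the spread, shared by the groups, did change, and the adjusted p was 0.0085. The same holds for the fits below that leave out only control animals. For early life minus peripubertal the adjusted p was also under the threshold when only those 2 groups were fitted (0.0352, 62 genes called), without early life replicate 3 (0.0453, 747 genes), without the array of control replicates 3 and 4 (0.0185, 120 genes) and without the array of early life replicates 3 and 4 (0.0459, 2339 genes). It missed the threshold under every other setting run, at 0.0721 with the software's processed signals, 0.105 with array means, 0.118 with outlier spots kept, 0.522 with median centring and up to 0.223 with other samples left out.

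Tgfb3 and Tgfb1 are printed 10 times on each array, so the spread between spots of a channel could be seen, which leaves out error from labelling and hybridisation. For Tgfb3, 7 to 10 spots a channel were used and their SD was between 0.17 and 0.36, with a median of 0.24. In control replicate 3 the 10 Tgfb3 spots ran from 10.31 to 11.08. In control replicate 4, on the same array in the other dye, they ran from 11.56 to 12.13. The spots of these array-mates did not overlap, so the low value of control replicate 3 was shared by all its spots.

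**Figure D3:**
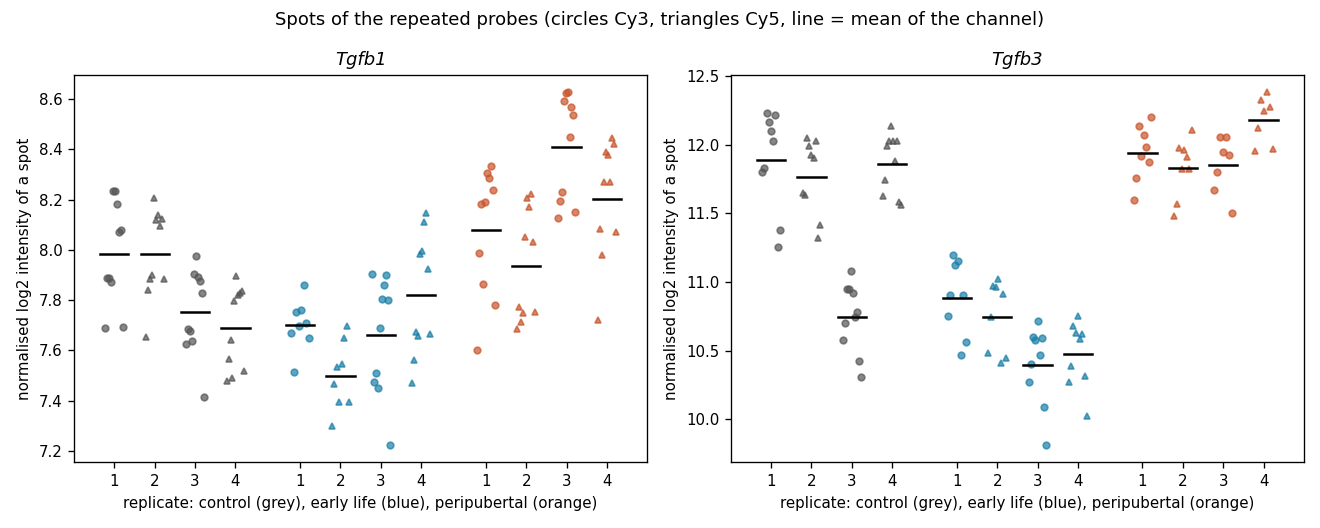
Normalised log2 intensity (y axis) of the single spots of the Tgfb1 and Tgfb3 probes in each channel (x axis, replicate within group); circles are Cy3, triangles Cy5 and lines the mean of the channel. The Tgfb3 spots of control replicate 3, from 10.31 to 11.08, lie in the range of the early life animals.

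Tgfb1, the best studied isoform, was at 7.98, 7.98, 7.75 and 7.69 in control, 7.70, 7.50, 7.66 and 7.82 in early life, and 8.08, 7.93, 8.41 and 8.20 in peripubertal animals. Early life channels all lay below peripubertal channels, as they did for 7.54% of genes with all values, and control overlapped both. Early life minus peripubertal was -0.49 ± 0.15 (SE; 95% interval -0.81 to -0.17, adjusted p = 0.140 by the limma model). Peripubertal minus control was 0.30 ± 0.15 (-0.01 to 0.62) and early life minus control -0.18 ± 0.15 (-0.50 to 0.14), the latter turning to 0.11 with the software's processed signals, under which the median of all genes was 0.48. Tgfb1 spots, 8 to 10 used in a channel, had a median SD of 0.21 within it.

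Tgfb2, the third ligand gene, showed no separation of the groups. Control levels were 8.77, 8.85, 8.77 and 8.99, early life levels 9.59, 9.14, 8.45 and 9.10, and peripubertal levels 8.52, 8.53, 9.26 and 8.68. The deficient groups spread more widely than control, with SDs of 0.47 and 0.35 beside 0.10. The differences were 0.23 ± 0.28 for early life minus control, -0.10 ± 0.28 for peripubertal minus control and 0.32 ± 0.28 for early life minus peripubertal. A second Tgfb2 probe gave 0.37, 0.03 and 0.33 in that order, so the probes differed in sign for peripubertal minus control, where both values were under their SE.

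The receptors differed little between control and peripubertal animals. Tgfbr1, which encodes the type I receptor, was at 9.96, 10.09, 9.97 and 9.71 in control, 10.23, 10.45, 10.19 and 10.39 in early life, and 10.37, 9.74, 9.997 and 9.88 in peripubertal animals. All early life channels lay above all control channels, as they did for 6.39% of genes. Early life minus control was 0.38 ± 0.19 (SE; 95% interval -0.03 to 0.79, adjusted p = 0.340 by the limma model), and peripubertal minus control was 0.06 ± 0.19 (-0.35 to 0.48). With outlier spots left out before the scaling, early life minus control passed, at 0.77 and an adjusted p of 0.0302 by the limma model. In that setting the median of all genes was 0.31 and 3033 genes passed. The early life minus peripubertal difference of 0.32 came from Cy5, at 0.61, with 0.03 in Cy3. The other 3 Tgfbr1 probes were well above background in no channel.

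Tgfbr2, which encodes the ligand-binding type II receptor, overlapped between all groups. Its means were 11.75 ± 0.17 (SD, n = 4) in control, 11.75 ± 0.22 in early life and 11.69 ± 0.21 in peripubertal animals. Early life minus control was 0.01 (95% interval -0.33 to 0.34) and peripubertal minus control -0.06 (-0.39 to 0.27). A second Tgfbr2 probe, well above background in 4 of 12 channels, gave -0.10 and -0.04.

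Smad3, a carrier of the signal to the nucleus, was higher in the early life group than in control in all 4 animals. Its levels were 12.14, 12.21, 11.98 and 11.86 in control, 12.32, 12.27, 12.36 and 12.52 in early life, and 12.49, 12.33, 12.10 and 12.17 in peripubertal animals. Early life and control did not overlap, while the peripubertal group overlapped both. Of genes with all values, 6.39% had early life animals wholly above control. Early life minus control was 0.32 ± 0.14 (SE; 95% interval 0.01 to 0.63, adjusted p = 0.298 by the limma model, not passing). It passed with the software's processed signals, at 0.64 and an adjusted p of 0.0235 under a median of all genes of 0.48, and with outlier spots left out before the scaling, at 0.67 and 0.0238 under a median of 0.31. In those settings 4223 and 3033 genes passed. Relative to those medians Smad3 stood 0.17 and 0.36 higher, beside 0.29 as reported. Peripubertal minus control was 0.22 ± 0.14 (-0.09 to 0.53).

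Smad2, the other receptor-activated carrier here, averaged 9.08 ± 0.18 (SD, n = 4) in control, 9.21 ± 0.26 in early life and 8.99 ± 0.19 in peripubertal animals, with overlap throughout. Smad7, the feedback inhibitor and itself a target of the pathway, was at 9.19, 9.48, 9.06 and 9.25 in control, 9.84, 9.87, 8.999 and 9.42 in early life, and 9.31, 9.51, 9.27 and 9.22 in peripubertal animals. Early life replicates 1 and 2, which shared an array, lay above all other Smad7 values, and replicates 3 and 4 did not. Smad7 differed by 0.28 ± 0.19 for early life minus control (adjusted p = 0.473 by the limma model) and by 0.08 ± 0.19 for peripubertal minus control (-0.34 to 0.50). For early life minus control it passed with the software's processed signals, at 0.71 and an adjusted p of 0.0468, where 4223 genes passed, and without the array of early life replicates 3 and 4, at 0.61 and 0.0285, where 1905 did. Without the array of early life replicates 1 and 2 its sign turned, to -0.04 for early life minus control and -0.12 for early life minus peripubertal.

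In the comparisons of the early life group, too, none of the 8 other members passed. For early life minus control 18 of 18344 genes passed (0.0981%), and the 8 members had 6 positive and 2 negative differences with a median of 0.18, beside 0.03 over all genes. Of the 8, 2 had an unadjusted p under 0.05, beside 16.1% of all genes. For early life minus peripubertal the median of the 8 was 0.15, beside 0.03, with 6 positive and 2 negative, and 2 had an unadjusted p under 0.05, beside 19.3%. These medians rested on 1 array. Without the array of early life replicates 1 and 2 they were -0.080 and -0.018.

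The early life and peripubertal groups also differed in markers of blood. All 6 erythroid markers were measured, and their mean log2 deviation from the average of all channels ran from -1.31 to -0.09 in early life, from 0.29 to 1.74 in peripubertal and from -1.01 to 1.30 in control animals, with none of the 6 at background throughout. For 6 macrophage markers the ranges were -0.47 to 0.03, -0.26 to 0.57 and -0.36 to 0.47 in the same order. For 5 folliculostellate and stem cell markers they were -0.11 to 0.68, -0.28 to -0.02 and -0.39 to 0.06. The part of these cells in the Tgfb3 and Tgfb1 differences was not tested.

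A wider list of 53 genes of the pathway, 49 of them above the filter, was read by role. No gene of it passed the threshold in any of the 3 comparisons by the limma model. At an unadjusted p under 0.05 there were 1 of 49 for peripubertal minus control, 5 of 47 for early life minus control and 10 of 47 for early life minus peripubertal. Over all genes tested the shares were 4.67%, 16.1% and 19.3% in that order, so the counts follow the background. For peripubertal minus control 25 differences were positive and 24 negative, with a median of 0.01, close to the 0.0070 of all genes. Genes of smallest p in each role are named next.

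Of the genes that store and activate the ligand, none of 9 passed for peripubertal minus control. Itgav, an integrin chain that can release latent TGF-beta, differed by -0.37 ± 0.20 (SE) and Ltbp4, a latent TGF-beta binding protein, by 0.28 ± 0.23. Among 5 further receptor genes, Fkbp1a, whose product binds the type I receptor, differed by -0.70 ± 0.33 and Eng, the co-receptor endoglin of endothelium, by 0.36 ± 0.23. Fkbp1a overlapped between these groups, with peripubertal levels from 14.69 to 15.51 and control levels from 15.09 to 16.26.

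Among the other SMADs and adaptors, none of 8 passed. Smad9 differed by -0.15 ± 0.14 (SE) and Smad1 by 0.17 ± 0.18, both carriers of BMP signals. Zfyve16, which encodes endofin, a FYVE-domain relative of SARA, differed by 0.09 ± 0.19 for peripubertal minus control and 0.02 ± 0.19 for early life minus control. Among 11 repressors and turnover genes, Ski, a SMAD co-repressor, differed by 0.26 ± 0.15 and Smurf2, a ubiquitin ligase, by 0.14 ± 0.14. Tgif1, the close relative of Tgif2, differed by 0.18 ± 0.24 for peripubertal minus control and 0.44 ± 0.24 for early life minus control. The relatives Zfyve16 and Tgif1, named after their values were seen, thus did not share the negative differences of Zfyve9 and Tgif2; under the other scalings both stayed above 0 against control, and Zfyve16 was below 0 in early life without the array of control replicates 1 and 2, at -0.03, and without that of early life replicates 1 and 2, at -0.15.

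**Figure D4:**
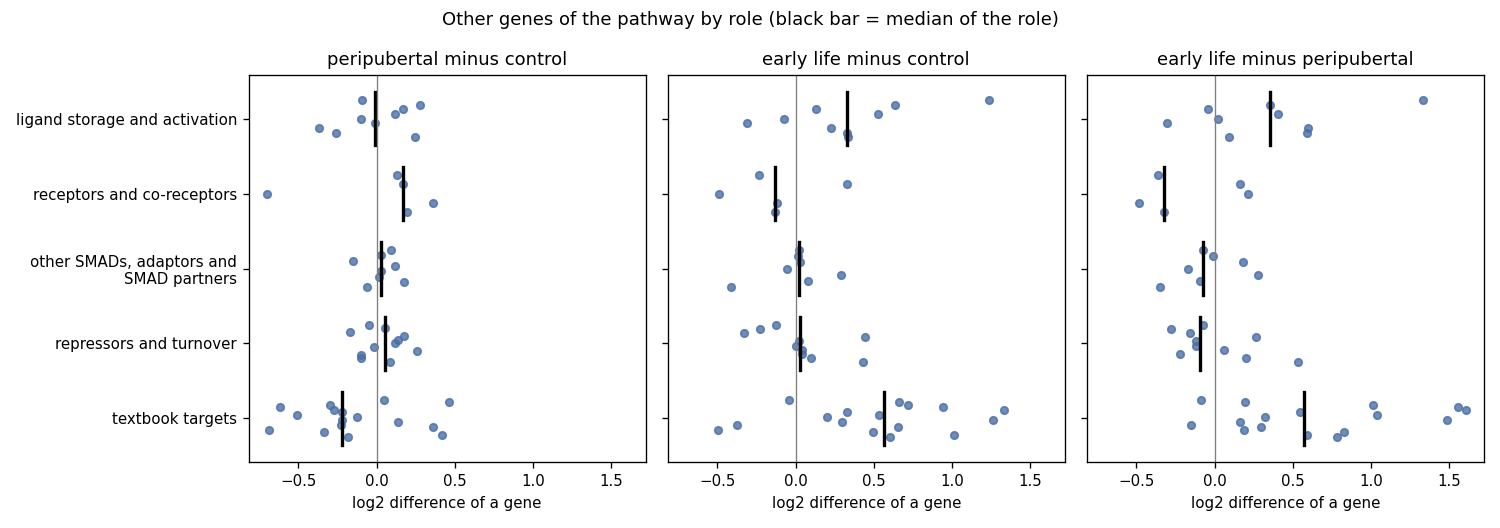
Log2 difference (x axis) of each measured gene of the wider pathway list by role in the 3 comparisons; each point is a gene and each black bar the median of its role. The textbook targets have a median of -0.22 in peripubertal minus control and 0.57 in both comparisons of the early life group.

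The textbook targets of the pathway showed the widest spread of the roles. For peripubertal minus control their median was -0.22, with 11 of 16 negative. It was between -0.05 and -0.01 under the 3 scalings that raised the median of all genes, to between 0.13 and 0.17. Without the array of control replicates 3 and 4 it was -0.07. Cdkn2b, the cell cycle inhibitor p15, had the smallest p of the list, at -0.68 ± 0.22 (SE, unadjusted p = 0.0104, adjusted p = 0.822 by the limma model). Its control levels were 9.30, 8.87, 9.35 and 9.75 and its peripubertal levels 8.62, 8.86, 8.40 and 8.65, which did not overlap. Of genes with all values, 4.95% had the peripubertal animals wholly below control.

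In the early life group the targets lay on the other side. Their median was 0.57 for early life minus control, with 13 of 16 positive, and 0.57 for early life minus peripubertal, with 14 of 16 positive, beside 0.03 over all genes in each. Both medians stayed above 0 under every other scaling and without any 1 array, where the lowest were 0.50 and 0.43. The scalings that raised the median of all genes put it between 0.17 and 0.48 for early life minus control and between 0.05 and 0.32 for early life minus peripubertal. A target median above 0 under them is therefore no support. None of the 16 targets passed the threshold. Thbs1, the ligand activator thrombospondin, and the target Id1, a helix-loop-helix inhibitor, were picked out after their values were seen. Thbs1 was at 10.33, 10.07, 9.43 and 9.93 in early life animals, at 8.02, 8.82, 9.32 and 8.65 in control and at 8.25, 8.44, 8.99 and 8.76 in peripubertal animals. Its early life range lay above both other groups, as 10.3% of genes did against peripubertal animals and 6.39% against control. The early life minus peripubertal difference of Thbs1 was 1.33 ± 0.34 (SE, adjusted p = 0.116 by the limma model). Id1 differed by 1.49 ± 0.47 in that comparison (adjusted p = 0.151 by the limma model). Fibroblast markers, 5 of 5 measured, ran in the same channels from -0.35 to 0.86 in early life, from -0.24 to 0.14 in peripubertal and from -0.59 to 0.04 in control animals. For pericyte and smooth muscle markers, 4 of 5 measured, the ranges were -0.35 to 0.54, -0.20 to 0.00088 and -0.33 to 0.35, and for 4 posterior lobe markers -0.11 to 0.53, -0.41 to 0.44 and -0.38 to 0.05, in the same order. Col1a1 and Col1a2 stand among both the targets and the fibroblast markers, Acta2 stands among both the targets and the smooth muscle markers, and Tagln is itself known as a smooth muscle gene. The part of these cells was not tested.

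The genes whose pattern was most like Zfyve9 and Tgif2 were mostly dim ones. Likeness was the Pearson correlation over the 12 channels after the mean of each dye was removed, among 11636 other genes with all values and a reference symbol, and it mirrors the gap between control and deficient channels. For Zfyve9 they were Olfr455 (0.98), Otos (0.97), Tatdn2 (0.97), Vmn1r52 (0.95) and Gm10280 (0.95). Within the 8 deficient channels, which shared a slide, the same correlations were between 0.47 and 0.86. All 5 were well above background in 4 of 4 control channels but in at most 2 of 4 of either deficient group. The choice of genes partly fixes this pattern, so nothing is read from it. The filter asked for 4 of 12 channels, and Olfr455 and Gm10280 passed it only through control. Otos, Tatdn2 and Vmn1r52, with 2 channels in each deficient group, would have passed without control. Of the dim genes named for Tgif2 next, Olfr1221 and Soat2 passed only through control, and Cyp27b1 would have passed without it. Likeness ranked all these genes by the gap to control. Tatdn2, a predicted nuclease gene, had the widest gap of them, from 8.38 ± 0.20 (SD, n = 4) in control to 7.47 ± 0.22 in early life and 7.11 ± 0.12 in peripubertal animals.

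For Tgif2 they were Olfr1221 (0.97), Soat2 (0.95), Col4a6 (0.94), Cyp27b1 (0.93) and Capza1 (0.93). Cyp27b1 encodes the enzyme that makes the active form of vitamin D, and its levels were 7.71 ± 0.14 (SD, n = 4) in control, 7.42 ± 0.16 in early life and 7.30 ± 0.12 in peripubertal animals, well above background in 4, 2 and 2 channels. Col4a6, a basement membrane collagen chain, and Capza1, an actin capping subunit, were well above background in all 12 channels. Zfyve9 and Tgif2 correlated at 0.83 with each other over the 12 channels and at -0.36 within the 8 deficient ones. Both genes were chosen for a lower peripubertal signal, which the first value partly restates, and several of the 8 channels were not well above background.

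**Figure D5:**
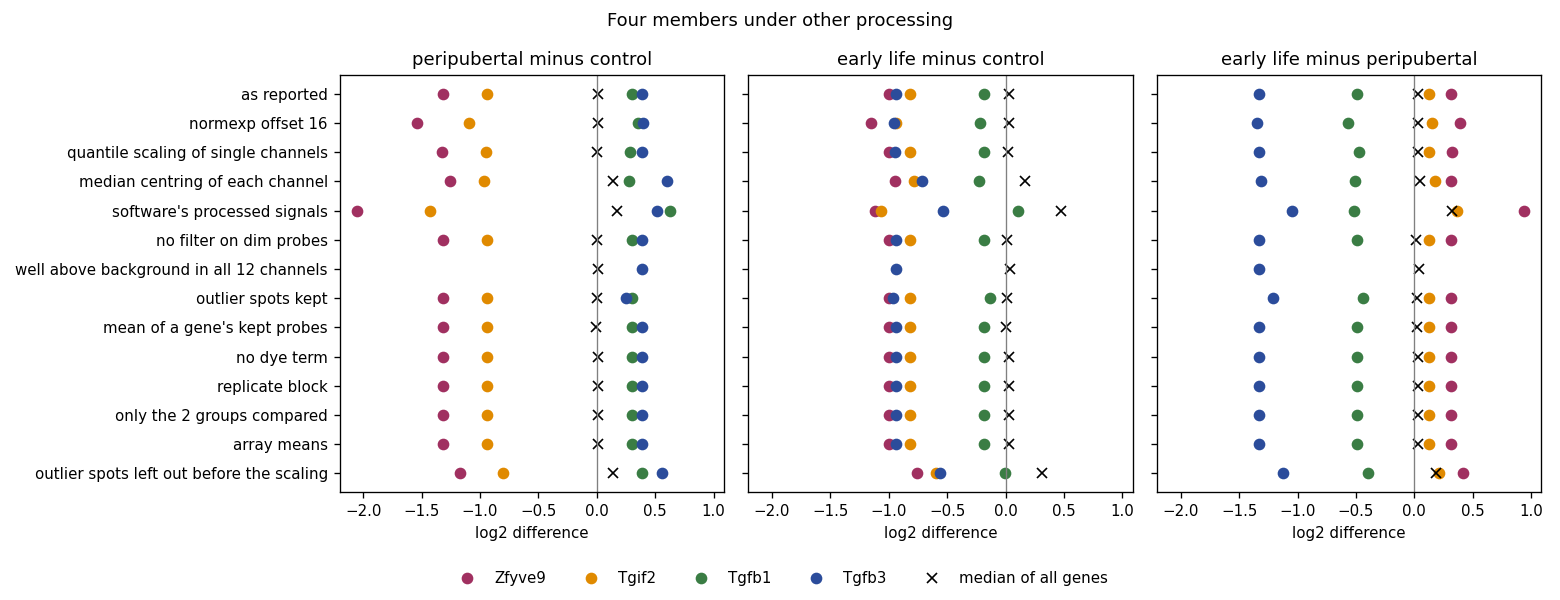
Log2 difference (x axis) of Zfyve9, Tgif2, Tgfb1 and Tgfb3 in the 3 comparisons as reported and under other processing (y axis); crosses are the median of all genes. Zfyve9 and Tgif2 lie below 0 against control in every setting drawn, down to -2.05 with the software's processed signals, and need the dim probes that the strictest filter removes.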

How the data were processed

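The deposited scanner files give spot intensity, local background and processed intensity. The software was, per the file headers, version 11.0.1.1 of Agilent Feature Extraction. The deposited value table gives log2 values, and the labels do not describe how the authors made them. Control features (1377 of 44397) were left out. Raw intensity was corrected by normexp (offset 50), loess within arrays and Aquantile scaling between arrays. Outlier spots were then removed, replicate spots averaged, and probes kept where well above background in at least 4 channels. The brightest probe stood for a gene. The limma model (limma 3.58.1, R 4.3.3) fitted group and dye, with array-mates correlated at the estimated 0.342, computed by generalised least squares. P-values were two-sided and adjusted by Benjamini-Hochberg across every gene tested in a comparison, and the threshold was 0.05. Only the model fit was tested on simulated gene values, and the steps before it were not. Members and lists were chosen with earlier results of these data known. Named from the wider list were the 2 genes of smallest p per role for peripubertal minus control and any past the threshold; 1 gene that this rule takes is not reported here. The 5 genes most correlated with Zfyve9 and with Tgif2 were also named. Alternatives covered background, scaling, filters, outlier spots, probe choice, dye, block and left-out samples. The number of arrays limits the precision.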

Additional observations from a re-analysis of the deposited data

Results flagged for a closer look

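Tgfb3 in control replicate 3 lay far from the rest of its group, at 10.74 where the other 3 control animals were between 11.77 and 11.89. Of the 30 groups of 4 values examined for the 10 members, this was the only one set apart in this way, where chance gives about 1 in 20. Its array-mate, control replicate 4, was at 11.86.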

How the results depend on the processing

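The signs of Zfyve9 and Tgif2 against control held under every alternative that kept them. Both were chosen for a lower peripubertal signal, so nothing is read from this. The signs of Tgfb3 and Tgfb1 for early life minus peripubertal also held under every alternative that kept the gene. The columns of the authors' value table were there assigned as in the scanner files. Under the table's own labels the signs of Tgfb3 and Tgfb1 turn. Zfyve9, Tgif2 and Tgfb1 are removed by a filter for probes well above background in all 12 channels. Counts below are given for early life minus control, peripubertal minus control and early life minus peripubertal, where genes called were 18, 4 and 24 as reported, and where the cause of a change was not tested unless the setting itself shows it. A value is left out where it lay within 1.5 times the reported count. With an offset of 16 the counts were 0 for peripubertal minus control and 53 for early life minus peripubertal. With quantile scaling of single channels that for peripubertal minus control was 0, and with median centring of each channel they were 4, 0 and 6. With the software's processed signals they were 4223, 0 and 785. With no filter on dim probes that for peripubertal minus control was 0, with the strictest filter they were 0, 0 and 1, and with outlier spots kept that for peripubertal minus control was 0 and the last 7. With the mean of a gene's kept probes they were 125, 20 and 151. With no dye term that for early life minus control was 29 and the last 85. With only the 2 groups compared they were 11, 10 and 62, with array means that for peripubertal minus control was 0 and early life minus peripubertal 39, and with the authors' value table that for early life minus peripubertal was 97. With outlier spots left out before the scaling, an alternative added after seeing the data like the arrays left out, they were 3033, 0 and 312.

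Calls among the 8 other members were 0 in each comparison as reported. For early life minus control they were 2 with the processed signals and 2 with outlier spots left out before the scaling. Those fits called 4223 and 3033 genes in all, where 18344 were tested as reported. For early life minus peripubertal there was 1 call with only the 2 groups compared, among 62 genes called in all. The median of the 8, reported as 0.18, 0.07 and 0.15, was 0.31 and 0.25 in the first 2 comparisons with median centring, 0.58, 0.28 and 0.39 with the processed signals, and 0.51, 0.24 and 0.35 with outlier spots left out before the scaling, settings that moved the median of all genes to 0.17 and 0.14, to 0.48, 0.17 and 0.32, and to 0.31, 0.13 and 0.19. Calls in the wider list, also 0 as reported, were 7 and 1 in the early life comparisons with the processed signals, 1 and 1 with kept probes averaged, and 9 and 1 with outlier spots left out before the scaling. Genes called in all were 4223 and 785, 125 and 151, and 3033 and 312 in the same order.

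Without the array of control replicates 1 and 2 the genes called were 33, 23 and 10, and without that of control replicates 3 and 4 they were 48, 0 and 120, with 1 of the 8 called for early life minus peripubertal. Without the array of early life replicates 1 and 2 they were 136, 20 and 160, and the medians of the 8 were -0.080 and -0.018 in the early life comparisons. Without the array of early life replicates 3 and 4 they were 1905, 0 and 2339, with 1 and 3 of the 8 and 5 and 8 of the wider list called in the early life comparisons; Smad7 was then called in both and Tgfb1 and Tgfb3 for early life minus peripubertal. Without the array of peripubertal replicates 1 and 2 the last 2 counts were 36 and 62, and without that of replicates 3 and 4 they were 32 and 48.

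Leaving out 1 animal at a time gave 6 to 236, 0 to 3 and 6 to 747 genes called, 0 to 1, 0 to 0 and 0 to 1 calls among the 8, medians of the 8 from 0.076 to 0.25, 0.020 to 0.13 and 0.098 to 0.22, and 0 to 2, 0 to 0 and 0 to 4 calls in the wider list. Replicate numbers did not pair the animals. Same-numbered animals of different groups correlated between -0.29 and 0.06 in their deviations from group and dye means, and 0 of 12 channels correlated best with their own number. With the replicate number as a block the genes called were 10, 0 and 6, with no call among the 8 or in the wider list.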

Other observations

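The 4 control columns of the authors' deposited table equal none of the scanned channels and were not used in the comparisons. In the authors' deposited table, Prl was between -4.12 and -2.01 in those 4 columns and between 8.93 and 10.4 in the 8 columns of the deficient groups (log2, scale as deposited). In the authors' deposited table, the egg coat gene Zp3 was between 3.67 and 5.46 in the control columns and at most -1.30 in the others. These columns thus carry ovary genes and lack pituitary hormone signal, against their label. In the authors' deposited table, Zfyve9 was between 0.22 and 2.10 in the control columns and between -2.52 and -0.16 in the columns of the deficient groups, while Tgif2 overlapped, from -2.17 to -0.31 and from -2.20 to -0.06.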
